A study of Mus musculus with 6 samples.

Results

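The genes described here belong to 7 solute carrier families that hold amino acid transporters: Slc1, Slc3, Slc6, Slc7, Slc36, Slc38 and Slc43. Members were taken by name from the deposited table, as protein-coding genes whose symbol opens with 1 of these family names followed by a. The rule itself uses no measured value, but earlier results of these data were known when it was chosen. The rule found 56 members among 25631 listed genes, of which 17773 are protein-coding. It also takes in genes that share a family name but carry other cargo, such as Slc6a4 for serotonin, Slc6a6 for taurine and Slc43a3 for purine nucleobases, and 1 gene that is named only for its neighbour, Slc7a6os.

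Amino acids cross cell membranes through carriers of several designs. Heteromeric carriers pair a heavy chain (Slc3a2, also called 4F2hc or CD98, or Slc3a1, also called rBAT), which brings the complex to the membrane, with a light chain of the Slc7 family, which forms the transport path. Carriers of the Slc1, Slc6 and Slc38 families are driven mostly by the sodium gradient. Mouse oocytes and early embryos are known for taking up glycine and proline-type amino acids as nutrients and as organic osmolytes, and oocytes also receive amino acids from granulosa cells through gap junctions.

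The study asked how oral aminophylline, a theophylline derivative that inhibits phosphodiesterases, affects oocytes of naturally aged mice. Oocytes were punctured from large antral follicles of ICR females aged 14 months that had received equine chorionic gonadotropin. The control group (3 libraries, labelled Aged1 to Aged3) was untreated. The aminophylline group (3 libraries, labelled Ami1 to Ami3) drank water with 4.0 mM aminophylline for 1 week and plain water for 3 weeks before collection. Age, strain and gonadotropin were shared by both groups, so the comparison is between treated and untreated aged mice, with no young group in it. How many animals and oocytes went into a library is not stated in the labels.

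Levels are in FPKM, which counts fragments relative to transcript length and library depth and can therefore be compared between genes. Reads recovered on the listed genes ran from 14014271 in control library 2 to 33388193 in control library 1, so that 3 reads on a transcript of 1 kb were worth between 0.0899 and 0.214 FPKM. All 10 oocyte markers passed the filter on low values, with Zp3 between 3068 and 5684 FPKM. Of 12 granulosa and cumulus markers 9 stayed under 1 FPKM in every library, and their summed level was 15.99 to 24.02 in control and 17.7 to 22.9 in aminophylline. Control library 1 stood apart by its macrophage markers: 11 of 12 were highest there, Lyz2 was at 66.4 and Fcer1g at 57.6 FPKM, and their sum without C1qb was 175 against 1.28 to 2.62 in the other 5 libraries. C1qb lay between 72.3 and 99.8 in every library. Where leaving out control library 1 moved the difference of a member by much, both values are given. In such bulk libraries, fewer cells of a type and less RNA per cell cannot be told apart.

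Promoter sequences are shown for 5 members: Slc3a2, Slc38a9 and Slc6a21, whose groups did not overlap, and Slc7a11 and Slc7a7, whose windows hold the letters of the C/EBP-ATF response element. Through this element the transcription factor ATF4 is known to act on genes when amino acids run short, Slc7a11 among them. Each window is the 250 bases before 1 annotated start, from RefSeq on GRCm38.p6, written on the gene's own strand from 5′ to 3′. Capitals mark TGATGNAA on either strand.
Slc7a11, chr3:50443614-50443863, minus strand: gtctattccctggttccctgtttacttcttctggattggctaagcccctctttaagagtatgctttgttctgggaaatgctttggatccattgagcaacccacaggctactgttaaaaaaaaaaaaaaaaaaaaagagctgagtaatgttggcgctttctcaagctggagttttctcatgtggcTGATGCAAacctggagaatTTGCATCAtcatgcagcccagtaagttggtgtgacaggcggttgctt
Slc7a7, chr14:54417703-54417952, minus strand: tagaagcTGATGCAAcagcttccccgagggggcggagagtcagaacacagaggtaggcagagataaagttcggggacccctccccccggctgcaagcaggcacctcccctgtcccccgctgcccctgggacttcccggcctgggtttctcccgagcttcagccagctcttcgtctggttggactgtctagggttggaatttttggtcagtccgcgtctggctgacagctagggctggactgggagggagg
Slc6a21, chr7:45282623-45282872, plus strand: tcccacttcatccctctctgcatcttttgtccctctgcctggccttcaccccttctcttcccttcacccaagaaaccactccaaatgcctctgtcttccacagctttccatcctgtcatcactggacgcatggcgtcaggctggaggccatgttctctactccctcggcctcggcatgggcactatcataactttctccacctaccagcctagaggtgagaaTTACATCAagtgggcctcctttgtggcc
Slc3a2, chr19:8713898-8714147, minus strand: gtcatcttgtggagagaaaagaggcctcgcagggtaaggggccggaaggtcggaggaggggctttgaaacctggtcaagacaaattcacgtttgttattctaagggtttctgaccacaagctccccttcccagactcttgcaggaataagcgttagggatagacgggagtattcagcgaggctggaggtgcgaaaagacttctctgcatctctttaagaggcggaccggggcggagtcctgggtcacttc
Slc38a9, chr13:112660516-112660765, plus strand: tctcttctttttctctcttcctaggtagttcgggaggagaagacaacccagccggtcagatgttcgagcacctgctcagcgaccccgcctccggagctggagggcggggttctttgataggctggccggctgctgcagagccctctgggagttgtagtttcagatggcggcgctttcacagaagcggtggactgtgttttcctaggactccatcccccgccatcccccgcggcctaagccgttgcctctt

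All 5 windows lie inside the annotated span of their gene, which opens further upstream, as for Slc6a21 on chromosome 7 from 45277331 to 45288996. The Slc7a11 window holds the element in both orientations. Among 14 tested members with an entry in the promoter table, 3 held it in at least 1 window, against 3.91% of 27025 genes and 3.45% of 32851 windows of the same length. The letters TGACNNNGC, the antioxidant response element bound by NRF2, were in windows of 2 of the 14, Slc6a9 and Slc7a1, against 11.5% of all genes and 10.2% of all windows. No member held both motifs. A match describes the letters only.

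Most of the message of the 56 members came from a few genes. A filter of at least 1 FPKM in at least 3 libraries was passed by 19 of the 56 members (33.9%), and by 49.7% of all protein-coding genes. These 19 carried 97.9% to 98.4% of the summed FPKM of the members in each library, and the 5 with the highest mean (Slc6a20a, Slc7a6os, Slc7a9, Slc43a3 and Slc3a2) carried 64.4% to 75.7%. Slc7a6os, which is no transporter, made up 26.5 of 224 FPKM in control library 2 and 57.7 of 262 in aminophylline library 3. In the order of mean level, 17 of the 18 neighbouring pairs had overlapping ranges over the 6 libraries, and only Slc43a3 and Slc3a2 were apart.

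**Figure D1:**
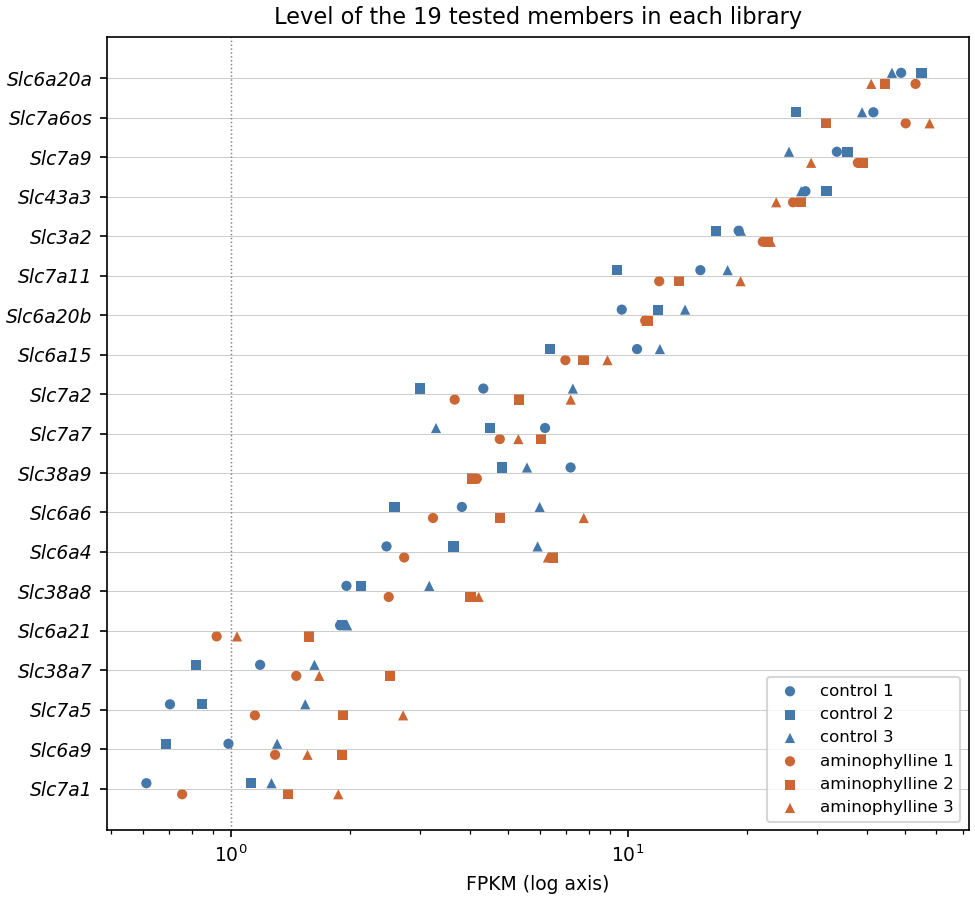
FPKM (horizontal log axis) of the 19 members that passed the filter, in order of mean level, with 1 point per library, control in blue and aminophylline in orange, and marker shapes for library numbers 1 to 3; the dotted line is at 1 FPKM. Slc6a20a is at the top, from 41.1 to 55.0, and Slc7a1 at the bottom, from 0.612 to 1.87, and the orange and blue points lie apart only for Slc3a2, Slc38a9 and Slc6a21.

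No member passed the test between aminophylline and control after adjustment, while the ratios of group means ran from 0.613 for Slc6a21 to 1.87 for Slc7a5. Summed over all 56 members, FPKM was 243, 224 and 245 in control libraries 1 to 3 and 250, 243 and 262 in aminophylline libraries 1 to 3, with means of 237 ± 11.6 and 251 ± 9.75 (SD, n = 3 each). The 2 ranges overlapped. Slc7a6os, which is no transporter, accounted for most of that difference: without it the sums were 197 to 206 and 200 to 211.

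In the limma test on log2(FPKM + 1) across 10340 genes, 0 of the 19 members and 0 genes in all (0%) had an adjusted p under 0.05, and the smallest adjusted p of a member was 0.685. The same count was 0 with voom on the recovered reads. At an unadjusted p under 0.05, 0 members were higher, where 4.41% of all tested genes were, and 1 member was lower, Slc6a21, which is 5.26% of 19 where 2.84% of all genes were lower. Of all genes at that threshold 60.8% were higher, a share that was 51.4% after rescaling to TPM and 35.9% after median centring. The 3 aminophylline libraries all lay above the 3 control libraries for 1 member (5.26% of 19), Slc3a2, where 7.51% of all genes did so. They all lay below them for 2 members (10.5% of 19), Slc38a9 and Slc6a21, where 4.96% of all genes did. These counts are few, and single libraries move them together with the shares of all genes. Without control library 3, 4 members were higher at an unadjusted p under 0.05 (Slc38a7, Slc38a8, Slc6a9 and Slc7a5), where 11.7% of all genes in that fit were. Without aminophylline library 1, 7 members lay above control in every treated library, where 15.9% of all genes did.

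The median log2 difference of the 19 members, aminophylline minus control, was 0.20, and that of all tested genes was 0.10. The differences ran from -0.43 for Slc6a21 to 0.52 for Slc7a5, and 13 of the 19 (68.4%) were positive, beside 64.8% of all genes. The median size of the difference, whatever its sign, was 0.27 for the members and 0.19 for all tested genes. With libraries of the same number treated as pairs (the replicate block), 0 members and 47 genes (0.455%) passed adjustment, and at an unadjusted p under 0.05 there were 1 higher member, Slc7a5, where 9.88% of all genes were higher, and 1 lower, Slc6a21, where 4.30% were lower.

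**Figure D2:**
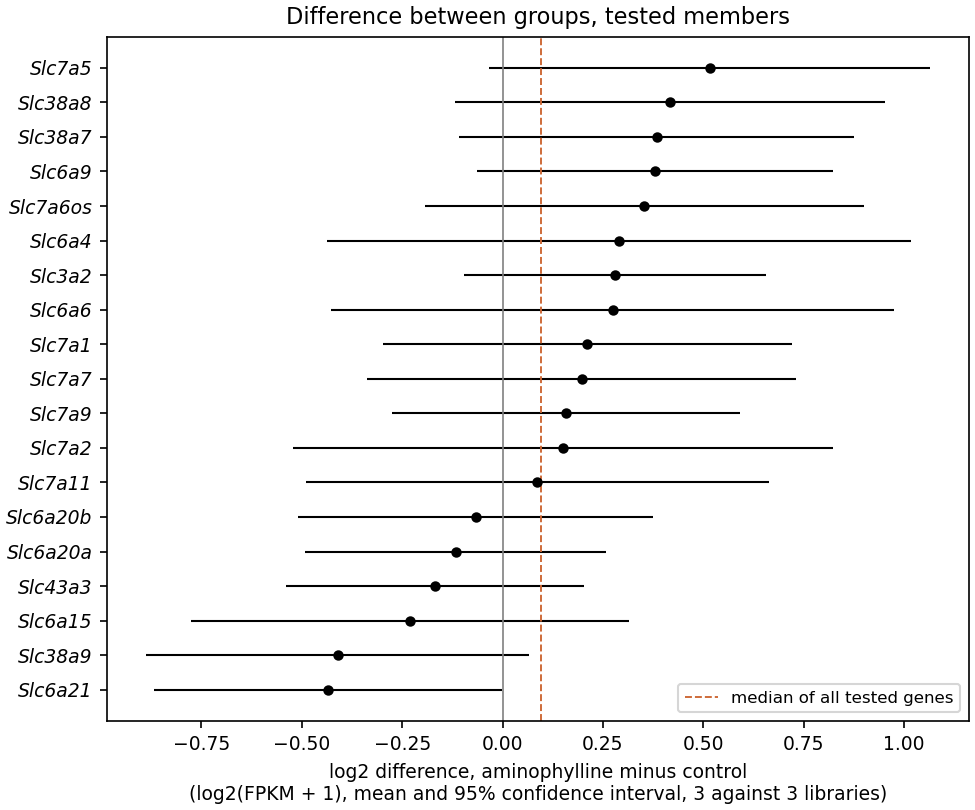
Log2 difference between aminophylline and control on the log2(FPKM + 1) scale (horizontal axis) for the 19 tested members, with dots for the mean and bars for the 95% confidence interval over 3 against 3 libraries; the dashed line is the median of all tested genes, 0.10. Every interval but that of Slc6a21 crosses 0, and its upper end lies just under 0.

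The heavy chain Slc3a2 was the one member with higher values in every treated library. It stood at 19.04, 16.7 and 19.3 FPKM in control and at 21.9, 22.5 and 22.9 in aminophylline. The lowest treated value was thus above the highest control value, and the means were 18.4 ± 1.41 and 22.5 ± 0.527 (SD, n = 3 each), a ratio of 1.22. In the limma fit the log2 difference was 0.28 with an SE of 0.17 and an adjusted p of 0.728. Without control library 1 it was 0.31 and the groups were still apart, and after rescaling to TPM they overlapped. The unadjusted p of Slc3a2 was 0.130 in the limma fit, 0.0395 with no filter and 0.0124 with the unmoderated model. Under the other alternatives it was 0.0908 (voom) to 0.293 (median centring). The other heavy chain, Slc3a1, was between 0 and 0.123 FPKM, with at most 7 recovered reads in a library.

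Light chains that pair with Slc3a2 added up to 15.5 to 23.5 FPKM in control and 18.7 to 28.1 in aminophylline, close to the level of their heavy chain, with ratios to Slc3a2 of 0.926 to 1.22 and 0.854 to 1.22. Slc7a11, the cystine-glutamate exchanger that feeds glutathione synthesis, made up most of this. It was at 15.2, 9.39 and 17.9 FPKM in control and 12.0, 13.5 and 19.3 in aminophylline. Its lowest value was in control library 2, its highest in aminophylline library 3, and the groups overlapped with a log2 difference of 0.09 (limma, SE 0.26, adjusted p = 0.941). Its difference was -0.16 without control library 2 and -0.10 without aminophylline library 3.

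Slc7a5, or LAT1, carries large neutral amino acids such as leucine. Its levels were 0.702, 0.847 and 1.54 FPKM in control and 1.15, 1.92 and 2.72 in aminophylline, on 42 to 292 recovered reads. Control library 3 lay above aminophylline library 1, so the groups overlapped, while within each number the treated library was higher. That was so too for Slc3a2, Slc7a9, Slc7a6os, Slc7a1, Slc6a9, Slc6a4, Slc38a7 and Slc38a8, and its share over all genes was not counted. The Slc7a5 means were 1.03 ± 0.447 and 1.93 ± 0.784 (SD, n = 3 each), a ratio of 1.87, which was the largest among the tested members. Its log2 difference of 0.52 (SE 0.25) had an unadjusted p of 0.0628 and an adjusted p of 0.688 in limma, and with the replicate block an unadjusted p of 0.0134 and an adjusted p of 0.232. On leaving out 1 library its log2 difference ran from 0.33 without aminophylline library 3 (limma, unadjusted p = 0.241) to 0.72 without aminophylline library 1 (unadjusted p = 0.0154). It was 0.40 without control library 1, and its unadjusted p was 0.0179 without control library 3.

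Slc7a7, or y+LAT1, exchanges cationic for neutral amino acids and is known from macrophages as well as epithelia. It was listed at 6.19, 4.50 and 3.29 FPKM in control and at 4.76, 6.03 and 5.30 in aminophylline. Its highest value was in control library 1, the library with macrophage markers, and a part of those cells in the value was not tested. With all libraries the log2 difference was 0.20 (limma, SE 0.24, adjusted p = 0.831). Without control library 1 it was 0.39, the groups no longer overlapped, and the adjusted p was 0.983. Without control library 3 it was 0.01. The remaining light chains were low, with Slc7a6 at 0.233 to 0.730, Slc7a8 at 0.0547 to 0.416 and Slc7a10 above 0 in 1 library only.

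Slc7a9, the light chain known to pair with Slc3a1 in kidney for uptake of cystine and dibasic amino acids, was among the most abundant members although that heavy chain was near 0. It stood at 33.7, 35.8 and 25.5 FPKM in control and 38.03, 39.0 and 29.0 in aminophylline. Library 3 was the lowest of both groups, which overlapped. The means were 31.7 ± 5.43 and 35.4 ± 5.53 (SD, n = 3 each), and the log2 difference was 0.16 (limma, SE 0.20, adjusted p = 0.834), or 0.01 without control library 3. Slc7a9 exceeded Slc3a2 in every library, by 1.26 to 2.14 times.

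Uptake of lysine, arginine and ornithine through the cationic amino acid transporters was represented by Slc7a2 and Slc7a1. Slc7a2 was at 4.33, 2.99 and 7.28 FPKM in control and 3.66, 5.32 and 7.19 in aminophylline. Slc7a1 was lower, at 0.612, 1.12 and 1.27 in control and 0.754, 1.39 and 1.87 in aminophylline. For both genes library 3 was the highest of each group, and the groups overlapped. Slc7a2 differed by 0.15 on the log2 scale (SE 0.31) and Slc7a1 by 0.21 (SE 0.23), with adjusted limma p-values of 0.905 and 0.807. The Slc7a1 difference was 0.06 without control library 1 and 0.05 without aminophylline library 3. For Slc7a2 the difference was -0.09 without control library 2 and -0.05 without aminophylline library 3. Slc7a4 and Slc7a14, named in the same group, did not exceed 0.0780.

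Library 3 was the highest of both groups for 8 of the 19 tested members, while 34.4% of all tested genes had that pattern. These were Slc3a2, Slc7a11, Slc7a5, Slc7a2, Slc7a1, Slc6a15, Slc6a6 and Slc38a8.

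The Slc6 family held the most abundant transporter. Slc6a20a, a sodium-dependent carrier of proline and other imino acids known as SIT1, was at 48.9, 55.0 and 46.4 FPKM in control and 53.1, 44.6 and 41.1 in aminophylline. Its levels varied little, with a highest to lowest ratio of 1.34, and the groups overlapped. The means were 50.1 ± 4.46 and 46.3 ± 6.204 (SD, n = 3 each), and the log2 difference was -0.12 (limma, SE 0.17, adjusted p = 0.860).

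Its neighbour and paralog on chromosome 9, Slc6a20b, was measured at 9.66, 11.9 and 13.95 FPKM in control and 11.1, 11.2 and 11.1 in aminophylline. The treated values lay within the control range. Slc6a20b was 0.198 to 0.301 times the level of Slc6a20a. On the longest Slc6a20b transcript of the GENCODE vM21 annotation, 10.1% of stretches of 50 bases also occur in Slc6a20a, so some reads of the pair may be shared, and how such reads were counted is not given in the sources used here. The log2 difference was -0.07 (limma, SE 0.20, adjusted p = 0.939) and 0.05 without control library 3. Without control library 1, every treated value was below both remaining control values, with a log2 difference of -0.20 and an adjusted limma p of 0.983.

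Slc6a15, or B0AT2, a carrier of branched-chain amino acids and proline, was at 10.6, 6.38 and 12.1 FPKM in control and at 6.97, 7.74 and 8.89 in aminophylline. Control library 2 lay below every treated library and the other control libraries above them. The log2 difference was -0.23 (limma, SE 0.25, adjusted p = 0.805), and it ran from -0.48 without control library 2, at an unadjusted p of 0.0490, to -0.06 without control library 3, at 0.802. Without control library 1 it was -0.15.

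The glycine transporter Slc6a9, or GLYT1, had low levels of 0.986, 0.687 and 1.31 FPKM in control and 1.29, 1.91 and 1.56 in aminophylline. Aminophylline library 1 was just below control library 3, so the groups overlapped by that library. The means were 0.994 ± 0.310 and 1.59 ± 0.307 (SD, n = 3 each), with a log2 difference of 0.38 (limma, SE 0.20, adjusted p = 0.704). It ran from 0.27 without control library 2, at an unadjusted p of 0.242, to 0.49 without control library 3, at 0.0364.

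Slc6a21, a member of the family with no established substrate, was the only one past the unadjusted threshold. Control values were close together at 1.88, 1.91 and 1.96 FPKM, and treated values were 0.921, 1.57 and 1.04. All 3 treated libraries were below all 3 controls, with means of 1.92 ± 0.0404 and 1.18 ± 0.349 (SD, n = 3 each) and a ratio of 0.613. The log2 difference of -0.43 (SE 0.20) had an unadjusted p of 0.0490 and an adjusted p of 0.685 in limma, and between 0.315 and 0.999 under the alternatives. Its unadjusted p stayed under 0.05 without aminophylline library 2, and it was 0.0711 to 0.169 without any other single library. The reads behind these values numbered 82 to 200 per library.

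Slc6 members that carry other cargo were measured at similar levels. The taurine transporter Slc6a6 was at 3.82, 2.58 and 6.001 FPKM in control and 3.23, 4.78 and 7.75 in aminophylline. For the serotonin transporter Slc6a4 the values were 2.47, 3.64 and 5.93 in control and 2.73, 6.48 and 6.30 in aminophylline. Groups overlapped for both. Slc6a6 differed by 0.27 (SE 0.32) and Slc6a4 by 0.29 (SE 0.33) on the log2 scale, with adjusted limma p-values of 0.818 and 0.815, and the Slc6a6 difference was 0.00 without aminophylline library 3. The Slc6a4 difference was 0.05 without control library 1, where its level was the lowest, and 0.62 without aminophylline library 1.

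The Slc38 family includes carriers of the cell surface and of the lysosome. Slc38a9, the lysosomal arginine sensor that passes the amino acid signal to the Rag GTPases and mTORC1, was at 7.18, 4.82 and 5.58 FPKM in control and at 4.17, 4.04 and 4.12 in aminophylline. Every treated value was below every control value.

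The Slc38a9 means were 5.86 ± 1.21 and 4.11 ± 0.0627 (SD, n = 3 each), a ratio of 0.701, and in the limma fit the log2 difference was -0.41 (SE 0.22, unadjusted p = 0.0851, adjusted p = 0.704). The largest control value came from library 1 with its macrophage markers, whose part in it was not tested. Without that library the groups were still apart, with a log2 difference of -0.28 and an unadjusted p of 0.239. The unadjusted p was 0.0387 after median centring, 0.0329 with voom, 0.0466 with no filter, 0.0467 with the unmoderated model and 0.0436 without control library 2. It was above 0.05 with a pseudocount of 0.1 (0.0789), TPM (0.0864), the replicate block (0.0625) and without control library 3 (0.0942). Leaving out 1 aminophylline library gave 0.157 to 0.178.

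Slc38a7, which exports glutamine from lysosomes, was at 1.18, 0.815 and 1.62 FPKM in control and 1.46, 2.52 and 1.67 in aminophylline. Slc38a8, a carrier of glutamine and other neutral amino acids, was at 1.96, 2.13 and 3.16 in control and 2.50, 4.02 and 4.21 in aminophylline. Both had 1 treated library, library 1, below control library 3. Slc38a7 differed by 0.38 (SE 0.22) and Slc38a8 by 0.42 (SE 0.24) on the log2 scale, each with an adjusted limma p of 0.721. On leaving out 1 library the difference of Slc38a7 ran from 0.23 without aminophylline library 2 (limma, unadjusted p = 0.370) to 0.52 without control library 3 (unadjusted p = 0.0440). That of Slc38a8 ran from 0.31 without aminophylline library 3 (limma, unadjusted p = 0.301) to 0.60 without aminophylline library 1 (unadjusted p = 0.0465). Slc38a8 had an unadjusted limma p of 0.0408 without control library 3, and a log2 difference of 0.32 without control library 1. Slc38a9 on the one side and Slc38a7 and Slc38a8 on the other thus had differences of opposite sign, and the contrast between these genes was not tested.

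**Figure D3:**
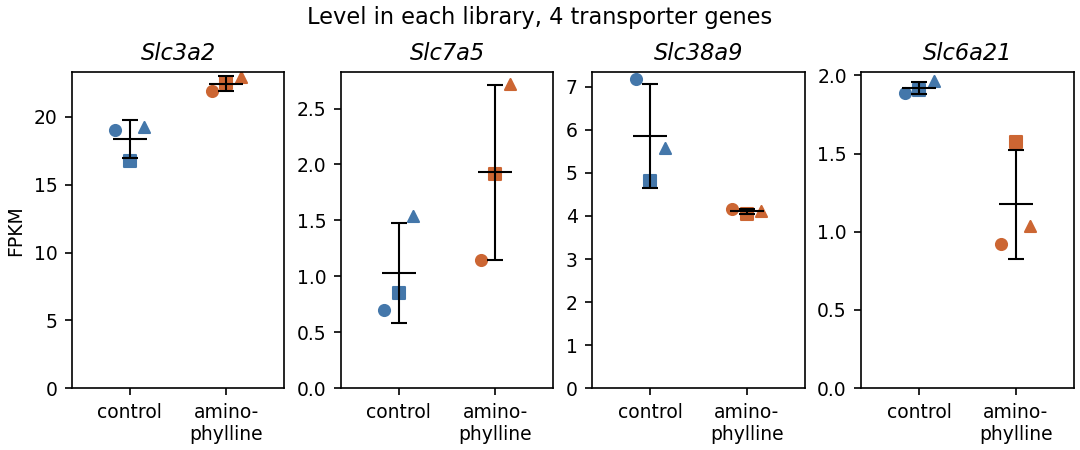
FPKM (vertical axes from 0) of Slc3a2, Slc7a5, Slc38a9 and Slc6a21 in control (blue) and aminophylline (orange), with circles, squares and triangles for libraries 1, 2 and 3 and black marks for the mean and SD of 3 libraries. Slc3a2 runs from 16.7 to 19.3 in control and from 21.9 to 22.9 in aminophylline, the treated libraries of Slc38a9 sit between 4.04 and 4.17, and the groups of Slc7a5 overlap.

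Slc43a3, a transporter of purine nucleobases despite its family, was at 28.1, 31.7 and 27.4 FPKM in control and 26.1, 27.4 and 23.7 in aminophylline. The groups met at the lowest control and highest treated library. After rescaling to TPM, or without control library 3 or aminophylline library 2, every treated value was below every control value. The means were 29.0 ± 2.33 and 25.7 ± 1.89 (SD, n = 3 each), with a log2 difference of -0.17 (limma, SE 0.17, adjusted p = 0.790). Its family members for large neutral amino acids were low, with Slc43a1 at 0.192 to 0.475 and Slc43a2 at 0.0485 to 0.120.

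Slc7a6os encodes a protein linked to nuclear import of RNA polymerase II, and it lies tail to tail with Slc7a6 on chromosome 8, with 1723 bases between the annotated ends. It was at 41.6, 26.5 and 39.0 FPKM in control and 50.2, 31.6 and 57.7 in aminophylline. Library 2 was the lowest of both groups, which overlapped. The means were 35.7 ± 8.05 and 46.5 ± 13.4 (SD, n = 3 each), and the log2 difference was 0.35 (limma, SE 0.25, adjusted p = 0.729). It ran from 0.16 without control library 2, at an unadjusted p of 0.523, to 0.60 without aminophylline library 2, at 0.0331. It was 0.47 without control library 1 and 0.18 without aminophylline library 3. Slc7a6 itself reached at most 0.730, far below its neighbour.

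The other 37 members did not pass the filter. Only Slc1a1, a glutamate and cysteine transporter, exceeded 1 FPKM in a library, with 1.26, 0.436 and 0.740 in control and 0.701, 0.497 and 0.883 in aminophylline. Its highest value was again in control library 1, and the groups overlapped. The highest value of the remaining members was 0.730. Of the 37, 16 were above 0 in all 6 libraries and 7 in 1 library only.

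Several carriers that are common in other cells were low in these libraries and under the filter. The glutamine transporters Slc1a5 and Slc38a2 reached at most 0.115 and 0.108 FPKM, and Slc38a1 lay between 0.103 and 0.575. Slc1a4, the other neutral carrier of its family, reached at most 0.0514. Among proton-coupled carriers Slc36a1 was at 0.107 to 0.372 and Slc36a4 at most at 0.0777. Of the GABA group, Slc6a13 was at 0.186 to 0.503. The proline transporter Slc6a7 was at 0.185 to 0.441, and the neuronal glycine transporter Slc6a5 at most at 0.0530. Members under the filter were not compared between groups in the fit reported here.

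Beyond the transporter families, other carriers and the pathways that read amino acid supply were examined as 3 lists. Of 21 other carriers, such as mitochondrial and lysosomal ones, 20 were in the table and 9 were tested. None of the 9 had an unadjusted p under 0.05 in the limma fit or with voom. In the limma fit, 4.41% of all tested genes were higher at that threshold and 2.84% lower. The median log2 difference of the 9 was 0.21, beside 0.10 for all tested genes. Slc25a15, the mitochondrial ornithine carrier, had the highest level, at 17.9, 15.7 and 29.7 FPKM in control and 18.5, 24.3 and 32.8 in aminophylline.

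The amino acid sensing list, made of Rag GTPases, Ragulator, the GATOR complexes and their sensors, had 33 genes, of which 22 were tested. At an unadjusted p under 0.05, 2 of the 22 were higher and 0 lower, where 4.41% and 2.84% of all tested genes were. The median log2 difference was 0.14, beside 0.10 for all tested genes. Rraga, the GTPase RagA that recruits mTORC1 to the lysosome, was at 37.9, 61.3 and 51.3 FPKM in control and 106, 82.8 and 127 in aminophylline. All treated libraries were above all controls, with means of 50.2 ± 11.7 and 105 ± 22.1 (SD, n = 3 each). The log2 difference was 1.06 (SE 0.22), with an unadjusted p of 0.000486 and an adjusted p of 0.651 in limma. With the replicate block, a pairing that the labels do not state, the adjusted limma p was 0.0125.

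Sec13, shared by GATOR2, the nuclear pore and COPII vesicles, was the second, at 165, 201 and 201 FPKM in control and 251, 233 and 241 in aminophylline. The groups did not overlap, and the log2 difference was 0.36 (limma, SE 0.15, adjusted p = 0.682). Without aminophylline library 1 or 2, or after rescaling to TPM, Rraga alone of the list had an unadjusted p under 0.05. Without control library 2 or control library 3, 5 genes of the list did, where 15.6% and 14.2% of all genes in those fits did. With the replicate block 3 of the 22 were higher and 1 lower at an unadjusted p under 0.05, where 9.88% of all genes were higher and 4.30% lower. The additions were Fnip2, a partner of folliculin, on the higher side (limma with the block, adjusted p = 0.263) and Seh1l, another GATOR2 and nuclear pore subunit, on the lower side (adjusted p = 0.322).

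The amino acid response list, made of the GCN2-ATF4 branch and genes that ATF4 is known to act on, had 23 genes and 17 tested, with a median log2 difference of 0.21. The median of all tested genes was 0.10. At an unadjusted p under 0.05, 1 of the 17 was higher and 1 lower, where 4.41% and 2.84% of all tested genes were. Phgdh, the first enzyme of serine synthesis, was at 11.7, 13.7 and 14.4 FPKM in control and at 17.3, 21.9 and 20.5 in aminophylline. These groups did not overlap, and the log2 difference was 0.55 (limma, SE 0.19, unadjusted p = 0.0144, adjusted p = 0.676).

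Eif2s1, the alpha subunit of the initiation factor that GCN2 phosphorylates, was at 103, 61.2 and 89.9 FPKM in control and 62.1, 58.7 and 56.5 in aminophylline. Control library 2 lay just below aminophylline library 1, and the log2 difference was -0.48 (limma, SE 0.20, unadjusted p = 0.0348, adjusted p = 0.682). Without aminophylline library 2 or 3, 0 genes of the list had an unadjusted p under 0.05, and without control library 1 only Phgdh did. Without control library 3 there were 5, where 14.2% of all genes in that fit were under 0.05. With the replicate block the list had 3 higher and 1 lower of 17, beside 9.88% and 4.30% of all genes, and the additions were Atf4 (limma with the block, adjusted p = 0.129) and Cebpb (adjusted p = 0.251). Atf4 was at 29.8, 42.8 and 72.3 FPKM in control and 54.6, 78.9 and 78.7 in aminophylline. Control library 3 was above aminophylline library 1, and within each number the treated library was higher.

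**Figure D4:**
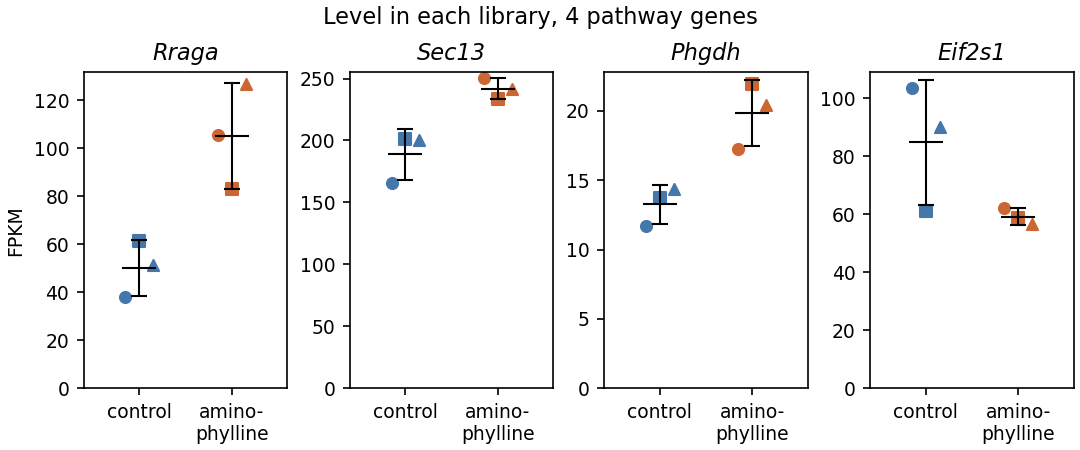
FPKM (vertical axes from 0) of Rraga, Sec13, Phgdh and Eif2s1, the 4 genes of the sensing and response lists with an unadjusted p under 0.05, in control (blue) and aminophylline (orange), with circles, squares and triangles for libraries 1, 2 and 3 and black marks for the mean and SD of 3 libraries. Rraga runs from 37.9 to 61.3 in control and from 82.8 to 127 in aminophylline, and the Eif2s1 groups overlap by control library 2.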

How the data were processed

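RNA of oocytes from 3 control and 3 aminophylline libraries was measured by RNA-seq, and groups follow the sample titles. The authors deposited FPKM values per gene for each library. The submitters' processing notes name the build GRCm38 (mm10), and aligner, counter, annotation and strand setting are not given in the sources used here. Reads were recovered from FPKM steps, whole within 0.001 for 22583 of 22583 genes above 0 in at least 2 libraries (100%). Genes with at least 1 FPKM in 3 of 6 libraries were tested on log2(FPKM + 1) with limma 3.58.1 (R 4.3.3, variance trend, Benjamini-Hochberg adjustment over 10340 genes), so that fold changes of low genes are understated. The fit was tested on simulated data only with changes larger than that of any member. Its power for smaller changes was not tested. The labels do not say that libraries came from separate animals, so p-values measure only the spread between these libraries, and precision at low levels is limited by counting error in the shallowest one.

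Alternatives were a pseudocount of 0.1, no filter, a mean of at least 5 FPKM, TPM, median centring, an unmoderated model, voom, the replicate block and leaving out each library. Deviations from the group means correlated between libraries of the same number at 0.138, 0.140 and 0.552. Libraries of different numbers were not compared in this way, and the labels do not explain the numbers. The pairing is thus at most a hint from the data. The blocked fit is given where it changes a call. The members and lists were chosen with earlier results of these data known. Every tested member is named with its values, members under the filter by role and in full where a library exceeds 1 FPKM, and list genes where their unadjusted p was under 0.05. Genes were matched to RefSeq by gene ID, and 14 of 19 tested members had a promoter entry. In the text, the additions under the block, Slc25a15 and the 5 printed promoters (out of the windows of tested members) were chosen after their values were seen.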

Additional observations from a re-analysis of the deposited data

How the results depend on the processing

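No member had an adjusted p under 0.05 under any of the 14 alternatives. Members with an unadjusted p under 0.05 numbered 0 higher and 1 lower. The higher count was 1 with no filter and with the unmoderated model, which was Slc3a2. It was 1 with the replicate block, which was Slc7a5, and 0 to 4 on leaving out 1 library. Of all genes, 3.58%, 3.94% and 9.88% were higher in these fits in turn, and 1.91% to 11.7% on leaving out 1 library. The lower count was 0 with a pseudocount of 0.1 or a mean of at least 5 FPKM, 2 with median centring, the unmoderated model or voom, and 0 to 2 on leaving out 1 library. With no filter it was 1, which was Slc38a9 in place of Slc6a21. Of all genes, 1.25% to 7.29% were lower under these alternatives, and 2.84% in the main fit. Members whose groups did not overlap numbered 1 higher and 2 lower. The higher count was 0 with TPM, 3 with median centring and 1 to 7 on leaving out 1 library. Of all genes, 5.50% and 4.97% were higher in this way with TPM and median centring, and 10.7% to 23.3% on leaving out 1 library. The lower count was 3 with TPM, 0 with a mean of at least 5 FPKM, which tests fewer genes, and 2 to 3 on leaving out 1 library. The shares of all genes were 4.50% and 6.47% in the first 2 of these, and 7.03% to 14.65% on leaving out 1 library. The count in the other carriers was 0 to 2 on leaving out 1 library. The count in the sensing list, 2, was 1 with TPM, 4 with the replicate block or voom and 1 to 5 on leaving out 1 library. The count in the response list, 2, was 1 with the unmoderated model, 4 with the replicate block and 0 to 5 on leaving out 1 library. Among all genes, the share under 0.05 ran from 3.16% without aminophylline library 2 to 15.6% without control library 2. Except where noted, the cause was not tested. The log2 ratio of summed FPKM, 0.085, was 0.0023 with median centring and 0.026 without Slc7a6os, an alternative chosen after seeing the data, and 0.045 to 0.11 on leaving out 1 library. The median log2 difference of 0.20 ran from 0.02 with no filter, where all members enter, to 0.31 without control library 3. Signs reversed only on leaving out 1 library, where the log2 difference ran from -0.16 to 0.27 for Slc7a11, from -0.093 to 0.43 for Slc7a2, from -0.00042 to 0.52 for Slc6a6 and from -0.20 to 0.049 for Slc6a20b. Of 257 values of single members under an alternative, 228 kept their direction and side of the threshold. Apart from Slc7a5, the replicate block changed no other call of a member. The 37 members under the filter were left out by level, and 7 of them had at least 10 reads in every library.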
